A study of Homo sapiens with 28 samples.

Results

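The androgen-responsive genes described here are 46 genes known from the literature to respond to androgen in prostate cells, with kallikreins and the enzymes of steroid and sterol metabolism left out. They were looked up by symbol, and all 46 were among the 26475 genes listed. RNA abundance was measured by polyA RNA-seq in 28 libraries of LNCaP, an androgen-sensitive human prostate cancer line that came from a metastasis in a lymph node, grown in RPMI 1640 with fetal bovine serum. No androgen addition or withdrawal is named in the labels. The knockdown series held 16 libraries in 8 groups of 2, namely shCtrl, shCtrl+shp300, shCtrl+shCBP, shCtrl+shp300/CBP, shHOXB13, shHOXB13+shp300, shHOXB13+shCBP and shHOXB13+shp300/CBP. The CCS1477 series held 12 libraries in 4 groups of 3, namely shCtrl or shHOXB13 cells with either DMSO, the solvent, or 250 nM CCS1477 for 48 hours. CCS1477 is a small molecule that binds the bromodomains of p300 and CBP. All groups carried a short hairpin RNA from a pGIPZ lentivirus, either the control or 1 clone against *HOXB13*. The hairpins against *p300* and *CBP* were delivered in pLKO.1, with 1 sequence per gene. The labels do not say whether the groups without them carried a control pLKO.1 vector. The parental genotype was wild type for all groups in the labels, and each hairpin rests on this 1 cell line.

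Androgens raise or lower the transcription of many genes in prostate epithelium, largely through distant enhancers. HOXB13 is a prostate homeodomain factor that binds many of these enhancers. p300 and CBP are related histone acetyltransferases that act as coactivators there. In luminal prostate cells androgen-responsive genes serve secretion, glycosylation, lipid and polyol metabolism, and feedback on hormone signalling, and several of them, such as *TMPRSS2* and *FKBP5*, are used as readouts of androgen signalling.

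The sequences upstream of *FKBP5* and *PART1* are given because both rose after *HOXB13* knockdown in either series. Both also had a negative interaction with shp300/CBP and with CCS1477. The rise and the interaction share the untreated shHOXB13 and shCtrl libraries, so a rise favours a negative interaction. Each is the run of 250 bases before the RefSeq transcription start nearest the gene's 5′ end in GENCODE 44 (GRCh38.p14, gene strand, 5′ to 3′). Capitals mark matches, on either strand, to CAATAAA, a HOXB13-type homeodomain site, to TGTTCT, the half-site of an androgen response element, and to TGTTTAC, a forkhead (FOXA-type) site.
*FKBP5* (chr6:35728584-35728833, minus strand): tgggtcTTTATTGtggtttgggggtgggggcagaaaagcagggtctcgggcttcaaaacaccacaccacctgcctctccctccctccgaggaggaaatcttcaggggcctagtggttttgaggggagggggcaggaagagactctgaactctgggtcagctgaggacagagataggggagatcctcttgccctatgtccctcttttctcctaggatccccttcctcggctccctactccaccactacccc
*PART1* (chr5:60487682-60487931, plus strand): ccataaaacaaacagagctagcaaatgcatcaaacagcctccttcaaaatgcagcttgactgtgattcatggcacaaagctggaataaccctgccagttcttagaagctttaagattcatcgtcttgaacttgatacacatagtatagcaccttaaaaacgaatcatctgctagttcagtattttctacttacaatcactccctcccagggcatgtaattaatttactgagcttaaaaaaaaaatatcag

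The *FKBP5* window held a match to the HOXB13-type site, on the reverse strand, and the *PART1* window held no match. GENCODE places the start of *PART1*, a gene with no protein product, inside its window, at position 60487713. Of the 38 members with a RefSeq window, 1 (*FKBP5*) matched that site, which 3.66% of all 35116 windows held. The half-site was found in 1 of the 38 (*STK39*) and in 12.4% of all windows, and the forkhead site in 0 of the 38 and in 2.98% of all windows. The matches describe these windows alone, and HOXB13 is known to bind mostly at distant enhancers.

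Depth and sample identity were examined first. Mapped reads per library ran from 7458934 to 16338528, of which 52.7% to 74.3% lay in genes in the knockdown series and 78.4% to 84.0% in the CCS1477 series. The shHOXB13 groups with a further hairpin were at 52.7% to 65.5%. All 46 members reached 0.1 FPKM in all 28 libraries, with 5 (*SGK1*) to 134754 (*ABHD2*) reads behind a value. *HOXB13* was at 87.6 and 85.4 FPKM in shCtrl and at 11.2 and 11.4 FPKM in shHOXB13 libraries (log2 −2.93, SE 0.17, limma adjusted p = 3.2e-07). Under DMSO the fall was smaller, from 140, 147 and 140 to 28.4, 32.2 and 30.6 FPKM (log2 −2.22). The depletion thus differed between the series that are set side by side below. *EP300*, the gene of p300, was at 5.62 and 5.88 FPKM with shHOXB13 and at 4.17 and 4.47 FPKM with shp300/CBP added, a difference of −0.41 on the log2 scale (SE 0.15) that did not pass (limma adjusted p = 0.073). Nor did that of *CREBBP*, the gene of CBP (log2 −0.27, SE 0.16, limma adjusted p = 0.23). Without shp300/CBP *EP300* was already lower in shHOXB13 than in shCtrl libraries (log2 −0.92, limma adjusted p = 0.00067). *CREBBP* did not pass there (log2 −0.32). Under DMSO mean *EP300* was 18.1 FPKM in shCtrl and 9.90 FPKM in shHOXB13 cells, and mean *CREBBP* 9.07 and 4.55 FPKM. CCS1477 raised both in shHOXB13 cells (log2 0.74 and 1.16). The part of these unlike starting levels in the interactions below was not tested. In shCtrl cells shp300/CBP lowered *EP300* (log2 −0.90), *CREBBP* (log2 −0.50) and also *HOXB13* (log2 −0.81), and in shHOXB13 cells it lowered *HOXB13* further (log2 −0.80, limma adjusted p = 0.0051). The labelled luminal prostate cells carried their markers, with *KRT8*, *KRT18*, *EPCAM*, *CDH1* and *FOLH1* at 57.4 FPKM or more in all libraries, while *TP63* and *PTPRC* did not exceed 0.0193 and 0.0150 FPKM. In bulk RNA, fewer cells of a type and less RNA per cell cannot be told apart.

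One pair of replicates stood apart. The shHOXB13+shp300/CBP libraries correlated at r = 0.9589 over log2 values, against 0.9704 or more for every other pair of replicates. The stress and androgen-responsive gene *NDRG1* was at 97.3 FPKM in the first of them and 8.19 FPKM in the second, against 39.2 and 36.9 FPKM in the shHOXB13 libraries. In the CCS1477 series the libraries numbered 1 of shCtrl DMSO and shCtrl CCS1477 correlated with their group mates at 0.9704 to 0.976. Values that turn on these libraries are given with and without them.

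To ask what *HOXB13* knockdown alone did to the androgen-responsive genes, shHOXB13 was compared with shCtrl in each series. In the knockdown series 28 of the 46 members fell and 4 rose at adjusted p under 0.05, while 30.8% of all 17678 genes tested were lower and 8.45% higher. In the DMSO arm of the CCS1477 series 25 fell and 11 rose, against 42.4% lower and 15.2% higher among 15907 genes. The median log2 change of the members was −0.60 and −0.32, beside −0.33 for all genes in either series. The series share no library, and 22 members fell in both (78.6% of those lower in the first and 88.0% of those lower in the second) and 4 rose in both (100% and 36.4%). Over all 15751 genes tested in both, 80.6% and 64.8% of the lower calls and 72.8% and 43.0% of the higher calls were shared. Across the 46 members the log2 changes of the series had r = 0.91, a description over genes that share libraries, and across all 15751 genes r = 0.71. Because the authors scaled to all mapped reads and the median gene was 0.33 lower on the log2 scale, the members were also compared after scaling each library by the median ratio over genes. The counts were then 15 lower and 6 higher in the knockdown series, with 15.6% and 17.4% of all genes, and 18 lower and 17 higher under DMSO, with 26.0% and 27.3%. Without the first shCtrl library, 17 members were lower in the knockdown series.

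**Figure D1:**
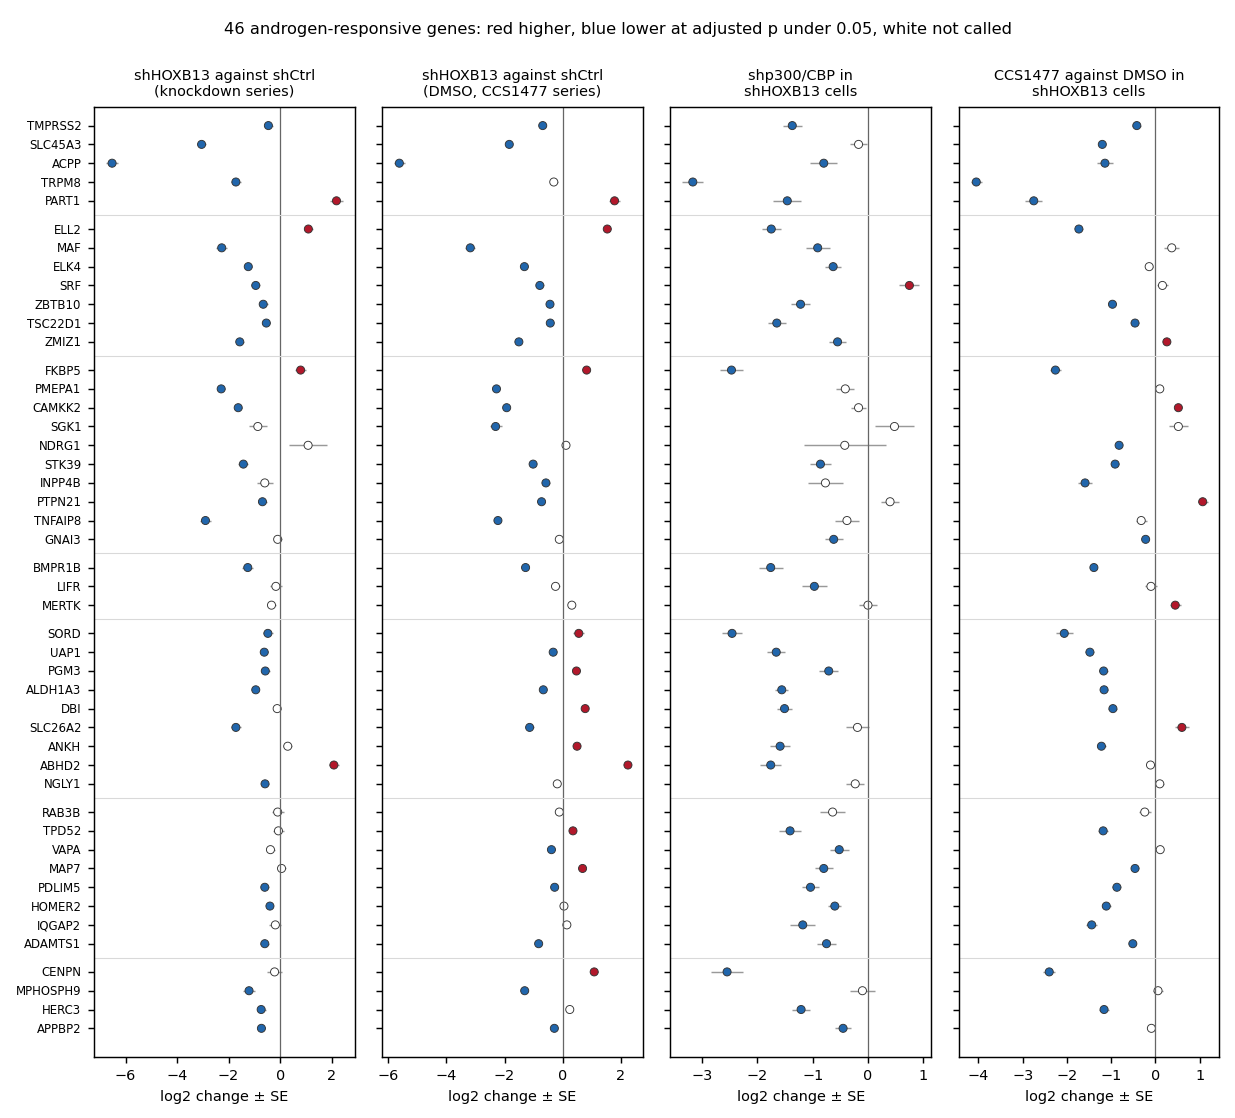
Log2 change ± SE (x axis) of each of the 46 members (rows, ordered by role) in 4 comparisons, with red and blue for higher and lower at adjusted p under 0.05 and white for members that did not pass. *PART1*, *ELL2*, *FKBP5* and *ABHD2* are red in both *HOXB13* knockdown panels, where 28 and 25 members are blue, and 32 and 28 members are blue with shp300/CBP and with CCS1477.

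The counts by role below stand beside the same shares of all genes. These were 30.8% lower and 8.45% higher in the knockdown series and 42.4% and 15.2% under DMSO. Of the 5 members of prostate secretion and the cell surface 4 fell and 1 rose in the knockdown series, and 3 fell and 1 rose under DMSO. *ACPP* encodes prostatic acid phosphatase, a secreted enzyme long used as a serum marker (gene at chr3:132317369-132368302, plus strand). It was at 76.5 and 75.6 FPKM in shCtrl and at 0.565 and 0.936 FPKM in shHOXB13 libraries. Under DMSO it was at 80.9, 84.8 and 84.4 FPKM against 1.34, 1.74 and 1.74 FPKM, so the groups lay far apart in either series (log2 −6.52, SE 0.24, and −5.62, SE 0.18). *SLC45A3* (prostein, a luminal membrane protein) was at 85.4 and 109 FPKM against 11.8 and 11.3 FPKM, and under DMSO at 146, 137 and 132 against 38.1, 38.2 and 39.5 FPKM (log2 −3.05, SE 0.16, and −1.84, SE 0.06). *TMPRSS2*, the androgen-regulated surface protease, fell less (log2 −0.46, SE 0.17, limma adjusted p = 0.048, and −0.69, SE 0.10), and its call in the knockdown series was lost with median-ratio scaling (log2 −0.06). *TRPM8*, a cold- and menthol-gated calcium channel of the prostate epithelium, was at 12.9 and 12.4 FPKM in shCtrl and at 4.19 and 3.38 FPKM in shHOXB13 libraries (log2 −1.72, SE 0.19). Under DMSO it was at 12.3, 14.9 and 13.5 FPKM against 10.7, 10.9 and 11 FPKM and did not pass the threshold (log2 −0.31, SE 0.13, limma adjusted p = 0.066). *PART1*, a prostate long noncoding RNA, went the other way, from 0.595 and 0.526 FPKM to 2.66 and 3.12 FPKM and, under DMSO, from 0.586, 0.407 and 0.435 to 1.82, 1.85 and 1.89 FPKM (log2 2.18, SE 0.25, and 1.78, SE 0.19). Exons of *PDE4D* on the opposite strand overlap *PART1*, and reads were counted without strand.

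Among the 7 members that act in transcription, 6 fell and 1 rose in each series. The member that rose was *ELL2*, an elongation factor of RNA polymerase II. It was at 7.39 and 5.87 FPKM in shCtrl and at 14.4 and 13.8 FPKM in shHOXB13 libraries, and under DMSO at 10.9, 9.58 and 9.47 against 32.3, 28.5 and 26.2 FPKM (log2 1.09, SE 0.17, and 1.53, SE 0.09). *MAF*, a bZIP factor, fell from 4.31 and 4.46 to 0.802 and 0.855 FPKM, and under DMSO from 9.84, 9.26 and 8.58 to 1.01, 1.16 and 0.678 FPKM (log2 −2.27, SE 0.22, and −3.18, SE 0.17). *ZMIZ1*, a coactivator of the PIAS-like family, fell by 1.57 and 1.51 on the log2 scale, and *ELK4*, an ETS factor that partners *SRF*, by 1.24 and 1.32. The falls of *ZBTB10* and *TSC22D1* were under 0.7 on the log2 scale and did not pass with median-ratio scaling in either series.

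The 10 members of signalling and feedback split as 5 lower and 1 higher in the knockdown series and 7 lower and 1 higher under DMSO. *FKBP5*, a cochaperone of Hsp90 in steroid receptor complexes, was the member that rose (gene at chr6:35573585-35728583, minus strand). It was at 6.51 and 5.49 FPKM in shCtrl and at 10.3 and 10.5 FPKM in shHOXB13 libraries, and under DMSO at 15.0, 17.9 and 17.4 against 32.4, 28.5 and 27.8 FPKM (log2 0.79, SE 0.21, limma adjusted p = 0.0096, and 0.82, SE 0.12, limma adjusted p = 0.00011). Its call in the knockdown series was lost without the second shCtrl or the second shHOXB13 library. *PMEPA1*, a feedback inhibitor of TGF-beta signalling, was at 31.3 and 33.7 FPKM against 6.46 and 6.68 FPKM, and under DMSO at 29.2, 30.6 and 32.1 against 6.16, 6.55 and 5.92 FPKM (log2 −2.29, SE 0.16, and −2.28, SE 0.06). *TNFAIP8*, a regulator of cell death, fell from 11.4 and 9.62 to 1.25 and 1.38 FPKM, and under DMSO from 9.70, 10.4 and 10.5 to 2.25, 2.03 and 2.02 FPKM (log2 −2.90, SE 0.21, and −2.23, SE 0.12). *CAMKK2*, the calcium-dependent kinase upstream of AMPK, fell from 18.9 in both shCtrl libraries to 6.88 and 5.25 FPKM, and under DMSO from 29.7, 31.2 and 31.1 to 8.35, 8.40 and 7.28 FPKM (log2 −1.63, SE 0.13, and −1.93, SE 0.07). The kinase *STK39* and the phosphatase *PTPN21* fell in both series, by 0.69 to 1.43 on the log2 scale, although *PTPN21* did not pass in the knockdown series with median-ratio scaling (log2 −0.30). The serum- and glucocorticoid-induced kinase *SGK1*, at 1.88 FPKM or less in all libraries, fell by 2.31 on the log2 scale under DMSO and did not pass in the knockdown series (log2 −0.87, SE 0.36, limma adjusted p = 0.078).

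Of the 3 receptors, *BMPR1B* (a bone morphogenetic protein receptor) fell in both series, by 1.26 and 1.28 on the log2 scale, and *LIFR* and *MERTK* passed in neither. The metabolic members were the most divided, with 6 lower and 1 higher of 9 in the knockdown series and 3 lower and 5 higher under DMSO. *ABHD2*, a serine hydrolase that acts on lipids, was the most abundant member in shHOXB13 cells. It was at 131 and 139 FPKM in shCtrl and at 586 and 554 FPKM in shHOXB13 libraries, and under DMSO at 206, 246 and 239 against 1000, 1110 and 1160 FPKM (log2 2.08, SE 0.19, and 2.24, SE 0.11). *SLC26A2*, a sulfate transporter, and *ALDH1A3*, an enzyme of retinoic acid synthesis, fell in both. *ALDH1A3* was at 40.2 and 36.5 FPKM against 20.6 and 19.0 FPKM, and under DMSO at 52.2, 52.5 and 53.7 against 34.5, 33.7 and 31.1 FPKM (log2 −0.95, SE 0.12, and −0.67, SE 0.08).

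2 members passed with opposite signs in the 2 series. *SORD*, which oxidizes sorbitol to fructose, was at 79.7 and 76.6 FPKM in shCtrl and at 55.3 and 56.4 FPKM in shHOXB13 libraries (log2 −0.48, SE 0.18, limma adjusted p = 0.049). Under DMSO it was at 173, 113 and 109 against 204, 192 and 172 FPKM (log2 0.55, SE 0.19, limma adjusted p = 0.024), and there the groups overlapped, with the first shCtrl library above the lowest shHOXB13 library. *PGM3*, an enzyme of UDP-GlcNAc synthesis, was at 14.3 and 11.5 against 8.43 and 8.67 FPKM in the knockdown series and at 12.8, 14.5 and 15.2 against 20.7, 20 and 18.1 FPKM under DMSO (log2 −0.58, SE 0.17, and 0.47, SE 0.10). With median-ratio scaling neither passed in the knockdown series (*SORD* log2 −0.08, *PGM3* log2 −0.18). *SORD* shares near-identical sequence with a pseudogene, so reads may have been split between them.

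No member of traffic, cytoskeleton and matrix changed by more than 0.83 on the log2 scale in either series. *ADAMTS1*, a secreted metalloprotease, and *PDLIM5*, a PDZ-LIM scaffold, fell in both, whereas *MAP7*, a microtubule-binding protein, and *TPD52* rose under DMSO (log2 0.68 and 0.35). With median-ratio scaling *PDLIM5* passed in neither series, *ADAMTS1* under DMSO but not in the knockdown series, and *MAP7* rose in both (log2 0.45 and 1.02). *CENPN*, a centromere protein, was at 40.8 and 38.9 against 33.4 and 35.0 FPKM in the knockdown series (log2 −0.22, SE 0.29, limma adjusted p = 0.58). Under DMSO it rose from 36.4, 47.7 and 46.2 to 95.1, 93.5 and 84.6 FPKM (log2 1.08, SE 0.13).

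**Figure D2:**
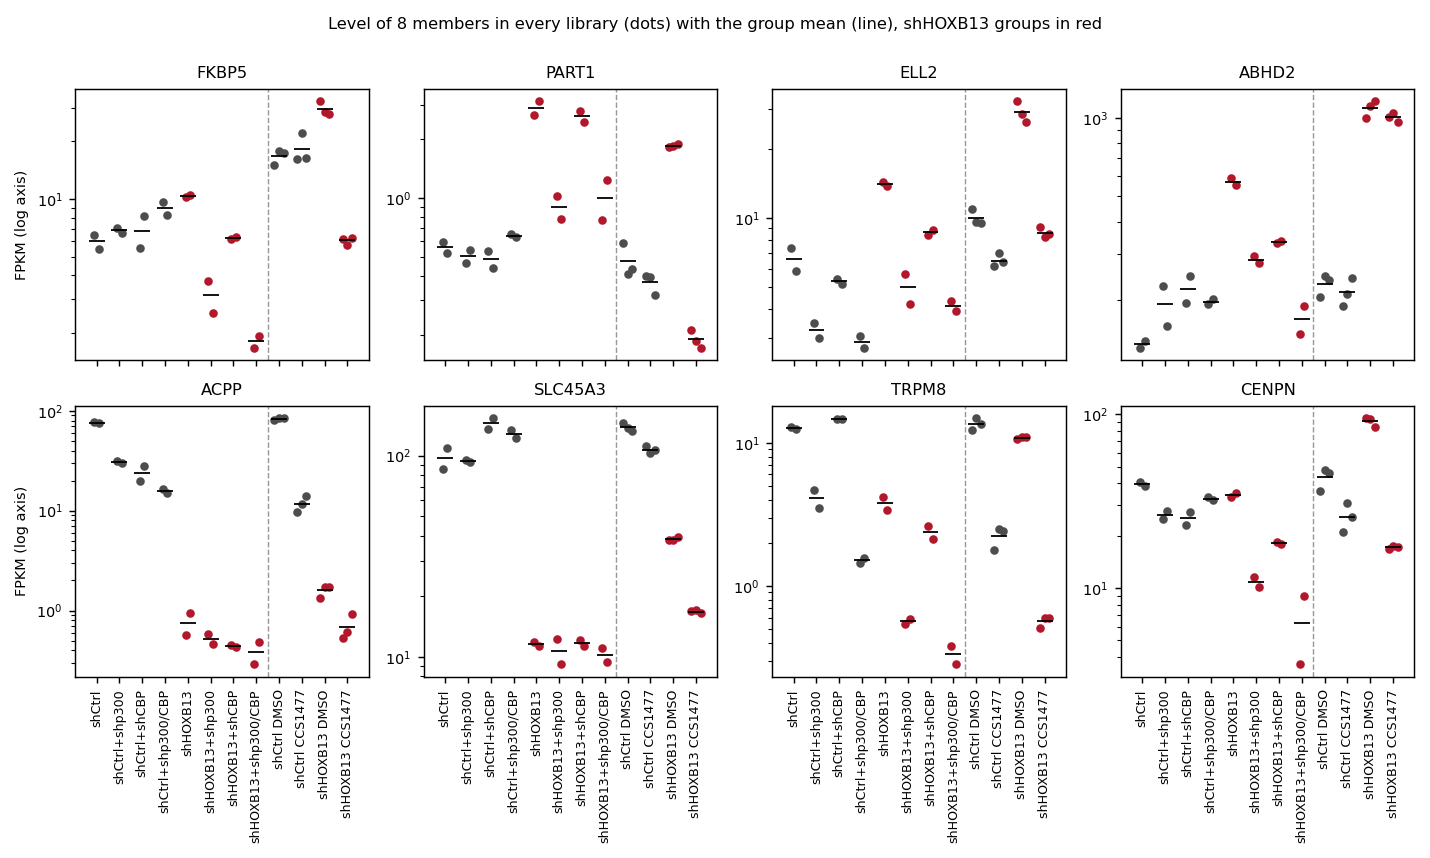
FPKM on a log axis (y) in each library (dots) of the 12 groups (x), with the group mean as a line and shHOXB13 groups in red, for 8 members. *FKBP5*, *PART1* and *ELL2* are higher in shHOXB13 than in shCtrl cells and lower again with shp300/CBP or CCS1477, *ABHD2* lies between 963 and 1160 FPKM in shHOXB13 cells with and without CCS1477, and *ACPP* is under 2 FPKM in all shHOXB13 libraries.

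Other genes known to respond to androgen, and markers of other cell types, were read in the same libraries. Of 27 other androgen-raised genes, 12 fell and 4 rose in the knockdown series, against 30.8% of all genes lower and 8.45% higher. Under DMSO 9 fell and 12 rose, against 42.4% and 15.2%. *AZGP1* (log2 2.94 and 2.96) and *HPGD* (log2 2.31 and 2.30) were higher in shHOXB13 cells in both series. With median-ratio scaling 7 were lower and 11 higher in the knockdown series, against 15.6% and 17.4% of all genes. Under DMSO 8 were then lower and 16 higher, against 26.0% and 27.3%. Of 5 genes known to be lowered by androgen, *UGT2B15* and *UGT2B17* rose in both series and *OPRK1*, *CAMK2N1* and *BCHE* fell in both. The *UGT2B* genes are near-identical copies whose reads may be shared. Of 3 basal markers *KRT14* fell in both series (log2 −4.47 and −4.80), of 5 stromal markers *VIM* fell in both (log2 −1.36 and −0.70, the latter lost with median-ratio scaling) while *ACTA2* fell (log2 −2.98) and *COL1A1* rose (log2 1.70) in the knockdown series, and of 3 immune markers *CD68*, which epithelial cells also express, rose in both (log2 1.11 and 0.44). The defining markers *TP63*, *DCN*, *PTPRC* and *CD3E* were at 0 FPKM in all shCtrl and shHOXB13 libraries without a further hairpin or CCS1477, save *CD3E* at 0.124 FPKM in 1 shHOXB13 DMSO library. The part of the markers that moved in the members' changes was not tested.

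The next comparison asked whether the members depended on p300 and CBP once *HOXB13* was depleted. With shp300/CBP added to shHOXB13, 32 of the 46 members fell and 1 rose, against 16.2% of all genes lower and 10.4% higher. Their median log2 change was −0.80, beside −0.00 for all genes. With CCS1477 in shHOXB13 cells 28 fell and 5 rose, against 10.4% lower and 29.2% higher, with a median of −0.67 beside 0.20 for all genes. With median-ratio scaling the CCS1477 counts were 33 lower and 2 higher, against 19.0% and 16.7% of all genes. The hairpins and the drug were tested in libraries that are not shared, and 25 members fell with both (78.1% of those lower with the hairpins and 89.3% of those lower with the drug), beside 32.8% and 56.5% for all 15751 genes. Across the 46 members the 2 sets of log2 changes had r = 0.80, and across all genes 0.38, again as a description over genes. A fit of the 4 shHOXB13 and shHOXB13+shp300/CBP libraries by themselves called 0 members and 0 of all genes with limma, so the calls rest on the spread shared over all 8 groups. In that fit 29 members were lower and 0 higher at unadjusted p under 0.05, beside 3189 and 2036 of all genes.

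*TRPM8*, *CENPN*, *FKBP5* and *SORD* had the largest falls of the members with the hairpins and, with *PART1*, the largest with the drug. *TRPM8* was at 4.19 and 3.38 FPKM with shHOXB13 and at 0.379 and 0.283 FPKM with shp300/CBP added, and at 10.7, 10.9 and 11 FPKM with DMSO and 0.506, 0.594 and 0.597 FPKM with CCS1477 (log2 −3.17, SE 0.19, and −4.05, SE 0.13). *FKBP5* went from 10.3 and 10.5 to 1.67 and 1.93 FPKM with the hairpins and from 32.4, 28.5 and 27.8 to 6.20, 5.75 and 6.27 FPKM with the drug (log2 −2.47, SE 0.21, and −2.26, SE 0.12). *CENPN* went from 33.4 and 35.0 to 3.65 and 9.01 FPKM and from 95.1, 93.5 and 84.6 to 16.7, 17.4 and 17.3 FPKM (log2 −2.55, SE 0.29, and −2.40, SE 0.13), with the replicates of the double knockdown well apart. *SORD* went from 55.3 and 56.4 to 9.21 and 11 FPKM and from 204, 192 and 172 to 47.3, 43.2 and 45.3 FPKM (log2 −2.46, SE 0.18, and −2.06, SE 0.19). In each of these 4 genes the treated libraries lay below all untreated ones.

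The 4 members raised by *HOXB13* knockdown in both series were picked on high shHOXB13 libraries. The same libraries are the untreated side here, which favours a fall. The like share over all genes was not counted. Of the 4, 3 fell with both treatments. Besides *FKBP5*, these were *PART1*, at 0.772 and 1.24 FPKM with shp300/CBP and at 0.212, 0.187 and 0.172 FPKM with CCS1477 (log2 −1.46, SE 0.25, and −2.75, SE 0.19), and *ELL2*, at 4.34 and 3.92 FPKM and at 9.09, 8.29 and 8.49 FPKM (log2 −1.75, SE 0.17, and −1.73, SE 0.09). With CCS1477 *PART1* lay below its shCtrl DMSO libraries, and *ELL2* lay below its lowest shCtrl DMSO library at 9.47 FPKM. *ABHD2* fell with the hairpins, from 586 and 554 to 148 and 190 FPKM (log2 −1.76, SE 0.19). With CCS1477 it stayed at 1010, 1050 and 963 FPKM against 1000, 1110 and 1160 FPKM with DMSO (log2 −0.11, SE 0.11, limma adjusted p = 0.46), a difference that did pass with median-ratio scaling (log2 −0.32). The hairpins and the drug were applied in separate series, and the difference between them was not tested.

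Members already lowered by *HOXB13* knockdown split into those that fell further and those that did not. Of the 22 lower in both series 10 fell with both treatments, beside 25 of all 46 members. The like share over all genes was not counted. *ACPP* went from 0.565 and 0.936 to 0.290 and 0.480 FPKM and from 1.34, 1.74 and 1.74 to 0.526, 0.614 and 0.924 FPKM (log2 −0.80, SE 0.24, limma adjusted p = 0.029, and −1.14, SE 0.18). With 13 reads in its lowest library, its call with the hairpins was lost without the first shHOXB13+shp300/CBP or the second shHOXB13 library, and with a pseudocount of 1 FPKM. *ALDH1A3* fell from 20.6 and 19.0 to 6.69 and 6.61 FPKM and from 34.5, 33.7 and 31.1 to 15.8, 14.8 and 13.5 FPKM (log2 −1.56, SE 0.12, and −1.16, SE 0.08). *SLC45A3* was at 11.1 and 9.37 FPKM with shp300/CBP, which did not pass the threshold (log2 −0.17, SE 0.16, limma adjusted p = 0.45), and fell with CCS1477 to 16.8, 17.0 and 16.5 FPKM (log2 −1.20, SE 0.06).

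*PMEPA1* passed with neither treatment, at 4.98 and 4.88 FPKM with the hairpins and at 6.76, 6.71 and 6.52 FPKM with the drug (log2 −0.41, SE 0.16, limma adjusted p = 0.078, and 0.10, SE 0.06, limma adjusted p = 0.24). *TNFAIP8* likewise did not pass, at 1.22 and 0.802 FPKM and at 1.52, 1.85 and 1.62 FPKM (log2 −0.38, SE 0.21, and −0.32, SE 0.12), although the second difference passed with median-ratio scaling (log2 −0.52). *CAMKK2* was at 5.0 and 5.68 FPKM with the hairpins (log2 −0.17, SE 0.13) and rose with CCS1477 to 11.3, 11.6 and 11.5 FPKM (log2 0.52, SE 0.07). *MAF* fell with the hairpins to 0.310 and 0.498 FPKM (log2 −0.91, SE 0.22), a call lost without the first shHOXB13+shp300/CBP or the second shHOXB13 library, and did not pass with CCS1477 at 1.38, 1.27 and 1.05 FPKM (log2 0.37, SE 0.17, limma adjusted p = 0.11). *PGM3* fell with both, to 5.40 and 4.98 FPKM (log2 −0.71, SE 0.17), a call lost without the second shHOXB13 library, and to 9.33, 8.23 and 8.40 FPKM (log2 −1.17, SE 0.10).

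By role, 7 of 9 metabolic members fell with the hairpins and 6 with the drug, including *UAP1*, which makes UDP-GlcNAc (log2 −1.66 and −1.48), *DBI*, the acyl-CoA-binding protein (log2 −1.51 and −0.96), and *ANKH*, which exports pyrophosphate and ATP (log2 −1.59 and −1.22). Of the 8 members of traffic, cytoskeleton and matrix 7 and 6 fell, such as *TPD52* (log2 −1.41 and −1.18) and the scaffold *IQGAP2* (log2 −1.18 and −1.44). Of the 7 members in transcription 6 fell with the hairpins and 3 with the drug. *SRF*, the serum response factor, rose with the hairpins (log2 0.75, SE 0.18), a call lost without either shHOXB13 library, and *ZMIZ1* fell with the hairpins (log2 −0.55) and rose with the drug (log2 0.26), the latter not with median-ratio scaling (log2 0.05). *PTPN21* rose with CCS1477 (log2 1.07, SE 0.11). Of the 10 members of signalling and feedback 3 fell with the hairpins and 5 with the drug. These counts by role stand beside 16.2% of all genes lower with the hairpins and 10.4% with the drug.

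**Figure D3:**
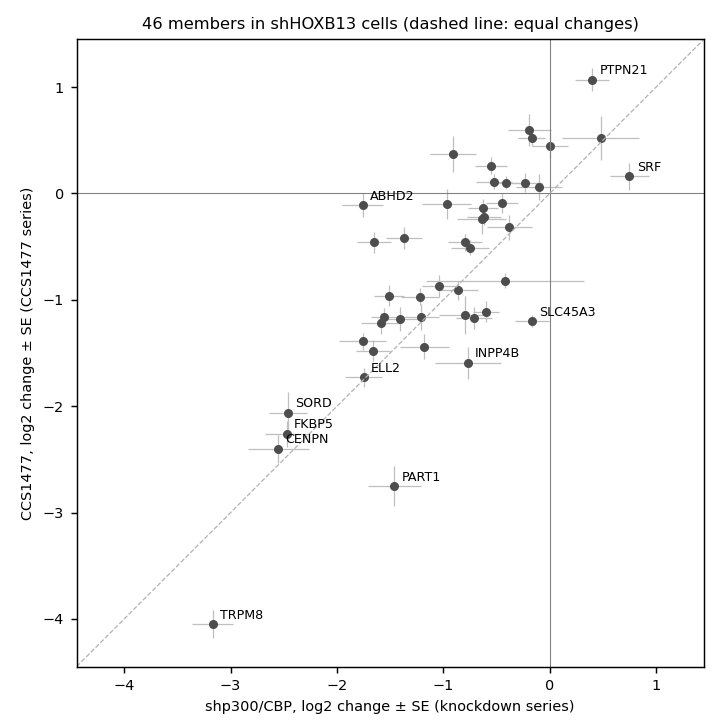
Log2 change ± SE of each of the 46 members (points) in shHOXB13 cells with shp300/CBP (x axis) and with CCS1477 (y axis), with a dashed line of equal change. *TRPM8*, *CENPN*, *FKBP5* and *SORD* lie between −3.17 and −2.46 with the hairpins and between −4.05 and −2.06 with the drug, *ABHD2* lies at −1.76 with the hairpins and −0.11 with the drug, and *PTPN21* at 0.40 and 1.07.

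Of the 27 other androgen-raised genes 17 fell and 0 rose with the hairpins, against 16.2% of all genes lower and 10.4% higher. With the drug 19 fell and 2 rose, against 10.4% and 29.2%. *HPGD* led the falls with both (log2 −2.70 and −4.38). Of 5 genes known to be lowered by androgen, *UGT2B15* and *UGT2B17* fell with both treatments, and 0 rose with the hairpins. With the drug *BCHE* also fell and *OPRK1* rose. Of 3 neuroendocrine markers *SYP* (log2 1.78 and 0.86) and *ENO2* (log2 2.27 and 1.54) rose with both treatments, and the defining granin *CHGA* did not exceed 0.0417 FPKM in these libraries. Their summed level was 6.03 to 6.52 FPKM with shHOXB13 and 10.8 to 89.4 FPKM with shp300/CBP added, where *ENO2* was at 86.7 FPKM in the first library and 8.73 FPKM in the second. It was 4.46 to 5.59 FPKM with DMSO and 13.3 to 14.8 FPKM with CCS1477. Of 3 immune markers *CD68* rose with both (log2 1.13 and 0.87), and of 5 stromal markers *ACTA2* rose with both while *COL1A2* and *DCN* were at or near 0 FPKM. The part of these markers in the members' changes was not tested.

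The single hairpins were compared next, to ask which of the 2 acetyltransferases the members followed. Each hairpin was first read on its own target in shHOXB13 cells. *EP300* was called lower with shp300, at a log2 change of −0.79. *CREBBP* went from 4.72 and 5.15 to 2.96 and 3.33 FPKM with shCBP, a log2 change of −0.64. That fall was not called, its adjusted p in limma being 0.064. How far the member counts turned on this was not tested. In shHOXB13 cells shp300 lowered 17 members and raised 1 (*SRF*, log2 0.69), against 3.44% of all genes lower and 3.50% higher. The *SRF* call was lost without any 1 of the 4 libraries, with the replicate block and without the filter on low values. shCBP lowered 3 members (*UAP1*, *PDLIM5* and *HERC3*, log2 −0.74 to −0.99) and raised 0, against 1.13% and 0.402%, with 25 members lower and 0 higher at unadjusted p under 0.05 in limma. The log2 change was below 0 in 39 of the 46 members with shp300 and in 43 with shCBP, and the medians were −0.52 and −0.54. These comparisons share the shHOXB13 libraries. The count with shp300 was 10 without either shHOXB13 library and 9 without the second shHOXB13+shp300 library, and the count with shCBP was 0 without either shHOXB13 library or the first shHOXB13+shCBP library and 1 with the replicate block.

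The direct test of shp300 against shCBP passed for 6 members, 5 lower and 1 higher with shp300, against 0.718% and 1.86% of all genes. *TRPM8* was at 0.545 and 0.590 FPKM with shp300, below the shCBP libraries at 2.6 and 2.12 FPKM (log2 −1.88, SE 0.19, limma adjusted p = 0.00082). *PART1* was at 1.02 and 0.780 against 2.78 and 2.45 FPKM (log2 −1.45, SE 0.25, limma adjusted p = 0.012). *ALDH1A3* was at 8.25 and 7.66 against 15.5 and 18.4 FPKM (log2 −1.08, SE 0.12, limma adjusted p = 0.0012). *FKBP5* was at 3.73 and 2.53 against 6.21 and 6.31 FPKM (log2 −1.0, SE 0.21, limma adjusted p = 0.027). *ELL2* was at 5.71 and 4.22 against 8.40 and 8.89 FPKM (log2 −0.80), and *SLC26A2* was the member higher with shp300 (log2 0.92). In none of the first 5 did the shp300 and shCBP libraries overlap. The remaining 40 members did not pass, among them *ABHD2* at 294 and 277 against 330 and 338 FPKM and *SORD* at 21.2 and 18.9 against 31.4 and 33.5 FPKM. With median-ratio scaling *SORD* (log2 −0.80) and *TSC22D1* (log2 −0.60) passed as well. The count of lower members was 2 without the first shHOXB13+shCBP or the second shHOXB13+shp300 library and 3 without the second shHOXB13+shCBP library, and *SLC26A2* was not called without any 1 of these 4 libraries. As a check of the hairpins against each other, *EP300* was lower and *CREBBP* higher with shp300 than with shCBP (log2 −0.77 and 0.95). Against shHOXB13 alone *CREBBP* was not called with shCBP, as given above.

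The same treatments were compared in shCtrl cells, which carried no hairpin against *HOXB13*. There shp300/CBP lowered 12 members and raised 6, against 9.40% of all genes lower and 8.90% higher, with a median log2 change of −0.21. *TRPM8* was at 1.44 and 1.57 FPKM against 12.9 and 12.4 FPKM in shCtrl (log2 −2.99, SE 0.19), *ACPP* at 16.5 and 15.1 against 76.5 and 75.6 FPKM (log2 −2.26, SE 0.24), and *MAF* at 1.80 and 1.63 against 4.31 and 4.46 FPKM (log2 −1.31, SE 0.22). *SORD*, *ELL2* and *ALDH1A3* also fell (log2 −1.28, −1.17 and −1.14). *TMPRSS2*, *INPP4B*, *LIFR*, *MERTK*, *HOMER2* and *IQGAP2* rose, by 0.39 to 1.48 on the log2 scale. In shHOXB13 cells, where 32 of all 46 members fell with shp300/CBP, 4 of these 6 fell. So did 11 of the 12 lowered in shCtrl cells. The like overlaps over all genes were not counted. Without the first shCtrl or the second shCtrl+shp300/CBP library 7 and 6 members were lower, and 1 to 3 were higher without any 1 of the 4 libraries.

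With CCS1477 in shCtrl cells 23 members fell and 0 rose (limma, 3 higher at unadjusted p under 0.05), against 9.91% lower and 15.4% higher, with a median of −0.31 beside 0.06 for all genes. In shHOXB13 cells, where 28 of all 46 members fell, 20 of the 23 fell as well, and the overlap over all genes was not counted. *ACPP* was at 9.78, 11.6 and 14 FPKM against 80.9, 84.8 and 84.4 FPKM with DMSO (log2 −2.83, SE 0.18), *TRPM8* at 1.78, 2.51 and 2.42 against 12.3, 14.9 and 13.5 FPKM (log2 −2.56, SE 0.13) and *ALDH1A3* at 17.8, 15.0 and 16.2 against 52.2, 52.5 and 53.7 FPKM (log2 −1.69, SE 0.08). *FKBP5* stayed at 16.2, 22.1 and 16.4 FPKM against 15.0, 17.9 and 17.4 FPKM (log2 0.11, SE 0.12, limma adjusted p = 0.54). With the replicate number as a block 24 members fell and 0 rose. Without the libraries numbered 1 of both shCtrl groups 22 fell and 1 rose. Of the markers of other cell types *ENO2*, *SYP*, *CD68* and *COL1A1* rose and *KRT14* fell (log2 −3.26) with CCS1477 in shCtrl cells, and *SYP* rose with shp300/CBP there. Their part in the members' changes was not tested.

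The single hairpins were also compared in shCtrl cells. There shp300 lowered 6 (*ACPP*, *TRPM8*, *MAF*, *ELL2*, *ELK4* and *ALDH1A3*) and raised 0, against 2.19% and 1.05% of all genes, with 6 members higher at unadjusted p under 0.05 in limma. Without the first shCtrl or the first shCtrl+shp300 library 3 were lower. shCBP lowered 6 and raised 6, against 8.09% and 4.14%. In these libraries shCBP also lowered *HOXB13*, from 87.6 and 85.4 to 43.2 and 51.5 FPKM (log2 −0.87, limma adjusted p = 0.0086). With shp300 *HOXB13* did not pass (log2 −0.24). *MAF* differed in sign between the hairpins, at 1.39 and 1.18 FPKM with shp300 and at 11.8 and 10.9 FPKM with shCBP, against 4.31 and 4.46 FPKM in shCtrl libraries. The shCBP counts moved to between 1 and 4 lower and 1 and 3 higher without any 1 library.

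Whether the effect of shp300/CBP or of CCS1477 differed between shHOXB13 and shCtrl cells was tested as an interaction. This was the log2 change in shHOXB13 cells minus that in shCtrl cells. The untreated libraries are those of the *HOXB13* knockdown comparisons, so a rise there favours a negative interaction and a fall a positive one. With shp300/CBP 18 members were more negative in shHOXB13 cells and 1 was less negative, against 5.59% and 2.54% of all genes. With CCS1477 15 were more negative and 8 more positive, against 4.15% and 9.10%, and with median-ratio scaling 17 and 4, against 8.40% and 6.26%. 10 members were more negative in both series (55.6% of the first list and 66.7% of the second, beside 19.7% and 29.4% for all 15751 genes). They were *PART1*, *FKBP5*, *SORD*, *UAP1*, *DBI*, *ANKH*, *MAP7*, *HOMER2*, *IQGAP2* and *CENPN*.

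*FKBP5* had the most negative interaction with shp300/CBP of the members. In shCtrl cells it was at 9.67 and 8.29 FPKM with shp300/CBP against 6.51 and 5.49 FPKM without (log2 0.57, SE 0.21, limma adjusted p = 0.076), and in shHOXB13 cells it fell as given above. The interaction was −3.05 (SE 0.29, limma adjusted p = 0.00028) with the hairpins and −2.38 (SE 0.17, limma adjusted p = 1.1e-05) with CCS1477. *PART1* was at 0.653 and 0.631 FPKM with shp300/CBP and at 0.399, 0.393 and 0.319 FPKM with CCS1477 in shCtrl cells, and its interactions were −1.64 (SE 0.35) and −2.47 (SE 0.27). *CENPN* was at 33.5 and 32 FPKM with shp300/CBP and at 21.0, 30.7 and 25.5 FPKM with CCS1477 in shCtrl cells, and its interactions were −2.27 (SE 0.41) and −1.64 (SE 0.18). *ACPP* was the member with a positive interaction in both, 1.46 (SE 0.34, limma adjusted p = 0.024) and 1.69 (SE 0.25, limma adjusted p = 0.0018). Its shHOXB13 libraries lay near 1 FPKM, where the pseudocount of 0.1 compresses a log2 change, and the first call was lost with a pseudocount of 0.01 FPKM. Without the first shCtrl+shp300/CBP, the first shHOXB13 or the second shCtrl library 10, 11 and 11 members were more negative with the hairpins, and the *PART1* call was lost without the first or second shCtrl+shp300/CBP, the second shCtrl or the second shHOXB13 library.

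*ABHD2*, *TMPRSS2*, *INPP4B* and *LIFR* had negative interactions with the hairpins (log2 −2.31, −2.14, −2.25 and −1.69) and did not pass with CCS1477 (log2 −0.01, −0.27, −0.58 and −0.44), although *INPP4B* did with median-ratio scaling (log2 −0.71). The interaction of *TRPM8* did not pass with the hairpins (log2 −0.18, SE 0.27, limma adjusted p = 0.75), and it fell further in shHOXB13 cells with CCS1477 (interaction −1.49, SE 0.19). Of the 27 other androgen-raised genes 11 were more negative in shHOXB13 cells with the hairpins and 8 with CCS1477, against 5.59% and 4.15% of all genes. More positive were 0 with the hairpins and 3 with CCS1477, against 2.54% and 9.10%.

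**Figure D4:**
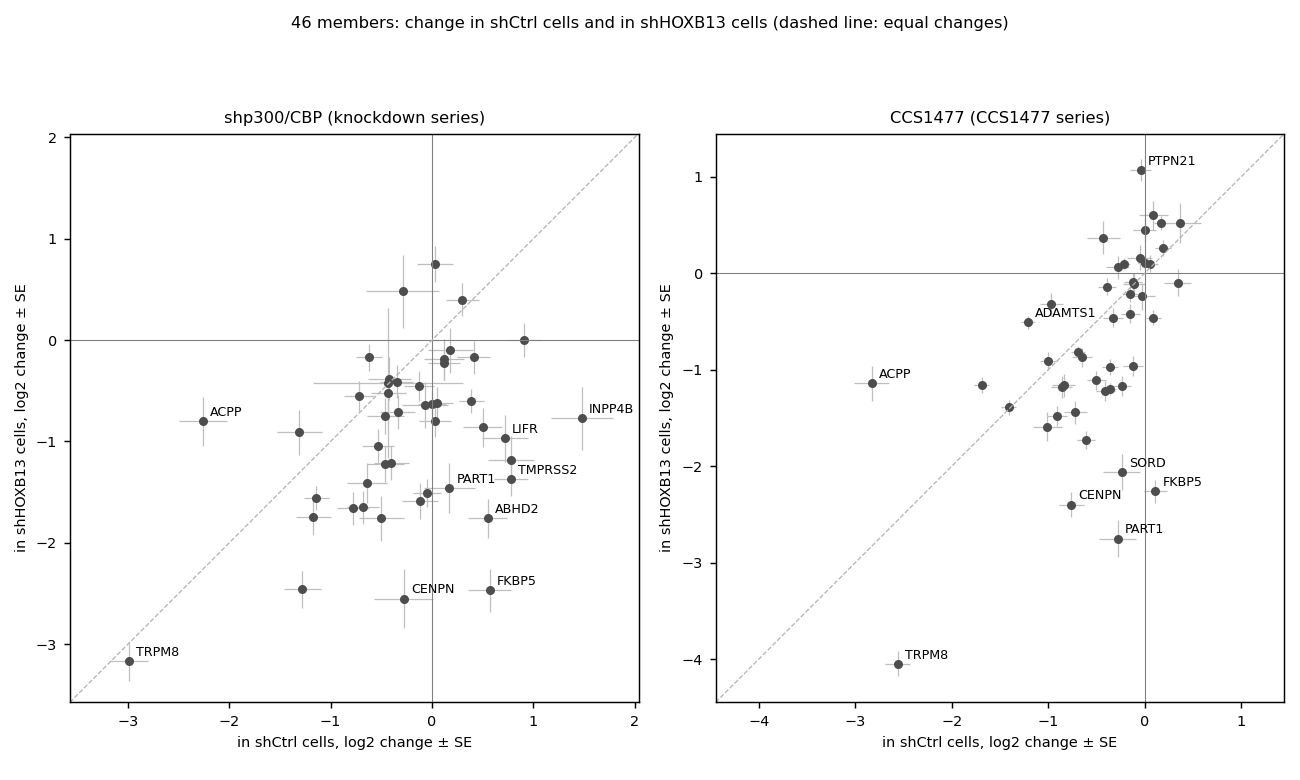
Log2 change ± SE of the 46 members (points) in shCtrl cells (x axis) and in shHOXB13 cells (y axis) with shp300/CBP (left) and with CCS1477 (right), with a dashed line of equal change. *FKBP5*, *PART1* and *CENPN* lie well below the line in both panels and *ACPP* above it, while *TRPM8* lies near it on the left.

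1 member, *RAB3B*, a GTPase of vesicle release, was not called in any of the 4 main comparisons in the plot of changes by role, with log2 changes from −0.64 to −0.10. With median-ratio scaling it was lower with CCS1477 in shHOXB13 cells (log2 −0.44). Of 4 genes that respond to glucocorticoids and androgen, *TSC22D3* and *KLF9* fell with shp300/CBP in shHOXB13 cells (log2 −1.46 and −1.24). They also fell in shCtrl cells (log2 −0.97 and −1.46). *PER1* and *ZBTB16* passed with shp300/CBP in neither. With CCS1477 in shHOXB13 cells *TSC22D3* (log2 −2.26) and *ZBTB16* fell and *KLF9* rose (log2 0.28), the latter not with median-ratio scaling.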

How the data were processed

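PolyA RNA-seq libraries of LNCaP cells were grouped by the labels, and each library was taken as a separate sample. The study's methods call the replicates biological duplicates or triplicates. The authors aligned reads to GRCh38 (STAR 2.6.0 in the submitters' processing notes), counted them per gene without strand and deposited FPKM values, that is fragments per kilobase of transcript, scaled to the mapped reads of the library. Counts were not used, and the depths given were recovered from the steps of the FPKM values, which were whole reads within 0.05 for 22422 of 22423 genes above 0. Of 26475 listed genes, 32 held no value. Because the scale is all mapped reads, a gene's FPKM also moves with the share of reads outside genes. *PLPP1* was read under its older symbol.

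The members and gene lists were chosen with earlier results of these data known, so none is independent evidence. Genes at 0.1 FPKM or more in at least 2 (knockdown) or 3 (CCS1477) libraries were tested on log2 of FPKM plus 0.1, so a fold change of a low gene is understated. Each series was fitted by itself with limma 3.58.1 (R 4.3.3), all its groups in 1 fit with a mean-dependent prior, and p-values were adjusted by Benjamini-Hochberg over all genes tested. A gene was called at adjusted p under 0.05 with no fold threshold. The fit was tested on simulated data. limma assumes groups of like spread, and with 2 or 3 libraries a group p-values measure only the spread between these libraries.

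All 46 members could be named. Values in all libraries compared are given for members called in both *HOXB13* knockdown comparisons with 1 sign (up to 6 in each direction, by the smaller log2 change) or with opposite signs, in both interactions (up to 4), and between shp300 and shCBP (up to 4). Others are given by role. Libraries with the same number deviated together in the shCtrl groups of the CCS1477 series (r = 0.665, 0.394 and 0.373), which was taken as pairing there, and in no other comparison. Numbers 2 and 3 also deviated together across numbers there (0.439 and 0.402), so that number 1 stood apart and 2 and 3 were not told apart. In GENCODE 44, exons of 10 members overlap another listed gene on the opposite strand. Alternatives were pseudocounts of 1 and 0.01, no filter, median-ratio scaling, a replicate block, a fit of the compared groups by themselves, a 1.5-fold threshold and leaving out each library. 2 alternatives, a block over the shCtrl groups and leaving out the libraries numbered 1 there, were chosen after seeing the data. Upstream sequences were from RefSeq (GRCh38.p14). Python 3.11.15 was used for tables and figures. Results on some genes are not reported here.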

Additional observations from a re-analysis of the deposited data

Results flagged for a closer look

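For the members named here the effect of shp300/CBP or of CCS1477 differed between shHOXB13 and shCtrl cells, each by the limma interaction test over all genes (value in shHOXB13 minus value in shCtrl cells, log2). With shp300/CBP, the prostate genes *TMPRSS2* (−2.14), *PART1* (−1.64) and *ACPP* (1.46) differed. So did *TSC22D1* (−0.96), *FKBP5* (−3.05), *STK39* (−1.36) and *INPP4B* (−2.25), and the receptors *BMPR1B* (−1.26), *LIFR* (−1.69) and *MERTK* (−0.91). The metabolic members were *SORD* (−1.19), *UAP1* (−0.88), *DBI* (−1.46), *ANKH* (−1.47) and *ABHD2* (−2.31). The others were *MAP7* (−0.83), *HOMER2* (−0.99), *IQGAP2* (−1.96) and *CENPN* (−2.27).

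With CCS1477, *SLC45A3* (−0.84), *ACPP* (1.69), *TRPM8* (−1.49), *PART1* (−2.47), *ELL2* (−1.13), *MAF* (0.80), *ZBTB10* (−0.60) and *FKBP5* (−2.38) differed. Among signalling members *PMEPA1* (0.31), *CAMKK2* (0.35), *PTPN21* (1.11) and *TNFAIP8* (0.65) were more positive in shHOXB13 cells. With median-ratio scaling *PMEPA1*, *CAMKK2*, *TNFAIP8* and *MAF* were not called. The metabolic members were *SORD* (−1.82), *UAP1* (−0.57), *PGM3* (−0.93), *ALDH1A3* (0.52), *DBI* (−0.84) and *ANKH* (−0.81). The others were *MAP7* (−0.55), *HOMER2* (−0.61), *IQGAP2* (−0.72), *ADAMTS1* (0.70) and *CENPN* (−1.64).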

How the results depend on the processing

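Members called are given as counts, higher or lower as named. A fit of the compared groups by themselves, 2 libraries each, called 0 higher and 0 lower members with shp300/CBP, with shp300 and with shp300 against shCBP in shHOXB13 cells, 0 lower with shCBP there and with shp300 in shCtrl cells, and 0 higher and 0 lower with shCBP in shCtrl cells. Its interaction with the hairpins had 0 higher. This fit uses fewer libraries for the spread, and at unadjusted p under 0.05 it had 29 lower members with shp300/CBP in shHOXB13 cells.

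With median-ratio scaling 15 members were lower after *HOXB13* knockdown and 17 higher under DMSO. It gave 2 higher and 8 lower with shp300 and shCBP in shHOXB13 cells, 1 higher with shp300 in shCtrl cells, 2 higher with CCS1477 in shHOXB13 cells, and 2 and 4 higher in the interactions with hairpins and drug. A pseudocount of 1 gave 0 higher for shp300 against shCBP, 1 higher for shp300 in shCtrl cells and 2 higher in the hairpin interaction, and 0.01 gave 0 there. No filter gave 0 higher with shp300 in shHOXB13 cells. A 1.5-fold threshold left 7 higher under DMSO, 2 higher with CCS1477 in shHOXB13 cells and 5 in its interaction.

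The replicate block gave 0 higher with shp300, 1 lower with shCBP and 0 higher for shp300 against shCBP in shHOXB13 cells, and moved no other count by over 1.5 times. In the knockdown series deviations of same-numbered libraries correlated at 0.098 for *HOXB13* knockdown, −0.18 for shp300 against shCBP and −0.339 for shCBP in shCtrl cells, so these libraries share only a number. Without both shCtrl libraries numbered 1 of the CCS1477 series, chosen after seeing the data, 1 member was higher with CCS1477 in shCtrl cells.

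Leaving out each library gave 3 to 4 higher and 17 to 26 lower after *HOXB13* knockdown, and 9 to 11 and 22 to 26 under DMSO. In shHOXB13 cells it gave 0 to 2 higher and 25 to 30 lower with shp300/CBP, 0 higher and 9 to 16 lower with shp300, 0 to 3 lower with shCBP, 0 higher and 2 to 5 lower for shp300 against shCBP, and 3 to 5 higher and 27 to 28 lower with CCS1477. In shCtrl cells it gave 1 to 3 higher and 6 to 11 lower with shp300/CBP, 3 to 5 lower with shp300, 1 to 3 higher and 1 to 4 lower with shCBP, and 0 to 1 higher and 20 to 22 lower with CCS1477. The interactions had 0 to 3 higher and 10 to 17 lower with the hairpins and 4 to 7 and 14 to 18 with the drug. No member named changed sign while called. Members under about 1 FPKM rest on few reads.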
